A study of Homo sapiens with 18 samples.

Results

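The genes of the TNF superfamily, its ligands and its receptors, were followed in MCF10A cells that lack CBFB or RUNX1. A gene was a member if its symbol began with TNFSF or TNFRSF and a digit, or was TNF, LTA, LTB, FASLG, CD40, CD70, CD27, LTBR, NGFR or EDAR. Of the 19401 genes listed in at least 1 of the 3 knockout-against-WT tables, 40 were members, 16 of them ligand genes and 24 receptor genes. The number listed was 39 for CBFB KO, 40 for the first RUNX1 clone (KO1) and 36 for the other (KO2). TNFSF11, TNFRSF17 and TNFRSF18 had no row and were not analysed here.

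MCF10A is an immortalized, non-tumorigenic line of human mammary epithelial cells. RNA was sequenced from 18 samples in 5 groups, CBFB WT (n = 3), CBFB KO (n = 3), RUNX1 WT (n = 4), RUNX1 KO1 (n = 4) and RUNX1 KO2 (n = 4). All cells were kept below passage 30 in medium with horse serum, insulin, EGF, hydrocortisone and cholera toxin, and no further agent was applied. Knockouts were made with CRISPR-Cas9 and grown from single cells, and by the series' design text the CBFB KO group was 1 clone and the RUNX1 KO groups 2 clones, and an effect of the gene cannot be told apart from a property of the clone. The labels do not say that the repeats came from separate cultures, so that p-values measure the spread between these samples, which may be technical.

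The measured quantity was the mean normalized read count of a gene over the KO and WT samples of a table, with the log2 fold change of KO over WT and its standard error (SE), all taken from the authors' deposited tables. A member changed where its deposited adjusted p, from a Wald test corrected over the genes of that table, was below 0.05. The level of a gene in WT or in KO was rebuilt from the mean and the fold change, which is approximate because deposited fold changes of weakly expressed genes were pulled towards 0. For example, FASLG had an SE of only 0.08 at a mean of 0.302 in the CBFB KO table. The RUNX1 KO1 and KO2 tables share their WT samples. For the 21 members whose mean reached 10 in both, the WT level rebuilt from the KO2 table differed from that of the KO1 table by a median of -0.08 on the log2 scale (SD 0.06).

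CBFB mRNA was almost absent from the CBFB KO samples (log2 fold change -4.88, SE 0.14). RUNX1 mRNA was higher, not lower, in the libraries labelled RUNX1 KO1 (0.54, SE 0.09) and RUNX1 KO2 (0.46, SE 0.13), so mRNA level does not check those labels, and each direction below rests on the labels. Among basal mammary markers KRT5 was the most abundant, with means from 87894 to 101688, and it fell slightly in CBFB KO (log2 fold change -0.27) and RUNX1 KO1 (-0.24). Of the 7 basal markers, 5 rose and 1 fell in CBFB KO, and 6 rose and 1 fell in RUNX1 KO1. In RUNX1 KO2, 3 rose and 0 fell of the 6 listed by the deposited DESeq2 test, and KRT14 had no row. KRT14 had the largest rise of these markers in CBFB KO (2.97) and RUNX1 KO1 (2.95). The general epithelial markers CDH1, EPCAM, KRT8 and KRT18 summed to 19411 normalized counts in CBFB WT and 35133 in CBFB KO, to 26011 and 31718 in the RUNX1 KO1 table and to 26170 and 44517 in the RUNX1 KO2 table. KRT8 and KRT18 made up most of these rises. By the deposited DESeq2 test 3 of the 4 rose in CBFB KO, 2 in RUNX1 KO1 and 1 in RUNX1 KO2. EPCAM had log2 fold changes of 0.43 in CBFB KO, -0.15 in RUNX1 KO1 and -0.14 in RUNX1 KO2. Of 10 leukocyte markers, 5 in the CBFB KO and RUNX1 KO2 tables and 6 in the RUNX1 KO1 table were below a mean of 1 or had no row. PTPRC, which marks all leukocytes, had a mean of 0.463 in the CBFB KO table and no row in the others, and CD3E stayed between 0.114 and 0.301. The leukocyte markers summed to 375 normalized counts in CBFB WT and 547 in CBFB KO, to 279 in RUNX1 WT and 365 in RUNX1 KO1, and to 270 and 359 in the RUNX1 KO2 table, nearly all of it CD68 and CD14. Summed fibroblast markers also moved with genotype, from 169 in CBFB WT to 420 in CBFB KO, from 155 to 477 in the RUNX1 KO1 table and from 147 to 347 in the RUNX1 KO2 table, carried mainly by COL1A1. DCN, a fibroblast marker with means of 6.66 to 7.34, fell in every table (log2 fold changes -1.06, -1.80 and -1.61). Their part in the results on TNF superfamily genes was not tested.

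TNF superfamily ligands are mostly trimeric membrane proteins, many of which can be shed, and they bind receptors with cysteine-rich extracellular domains. Receptors with a death domain, such as TNFRSF1A, TNFRSF10A, TNFRSF10B and TNFRSF25, can recruit TRADD or FADD and caspases, and others recruit TRAF adaptors that lead to NF-kappaB and MAP kinase signalling. Decoy receptors bind ligand without a functional signalling domain. Many ligands are best known from leukocytes, while epithelial cells carry several of the receptors. RUNX1 is a DNA-binding transcription factor and CBFB is its non-DNA-binding partner.

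Receptors made up most of the members' RNA in WT cells, 96.2% of the summed level per kb in CBFB WT and 95% in RUNX1 WT. The sum and the order below leave out family genes outside the symbol rule. Of those, FAS stood at 359 normalized counts per kb in CBFB WT and 290 in RUNX1 WT. Per kb of the longest transcript, the level in CBFB WT was highest for TNFRSF12A, the receptor of TWEAK (2338 normalized counts per kb). LTBR, the lymphotoxin beta receptor, followed at 1576, then TNFRSF10B, a TRAIL death receptor, at 876 and TNFRSF1A, the main TNF receptor of epithelia, at 852. In RUNX1 WT the same order began with TNFRSF12A at 2197 and LTBR at 1663 normalized counts per kb, but TNFRSF1A (729) stood above TNFRSF10B (620). The rank of such neighbours is not resolved, since no spread over samples could be given for a level. The most abundant ligand was TNFSF12, which encodes TWEAK, in CBFB WT (77.8 normalized counts per kb) and TNFSF9, the ligand of 4-1BB, in RUNX1 WT (110). TNFSF15 and TNFSF10, which rose in the knockouts, were low in WT, at 3.6 and 5.65 per kb in CBFB WT and 4.29 and 4.87 in RUNX1 WT. At the bottom of the order in RUNX1 WT, TNFRSF13C, TNFRSF4 and TNFRSF8 were at 0.029 to 0.109 per kb.

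**Figure D1:**
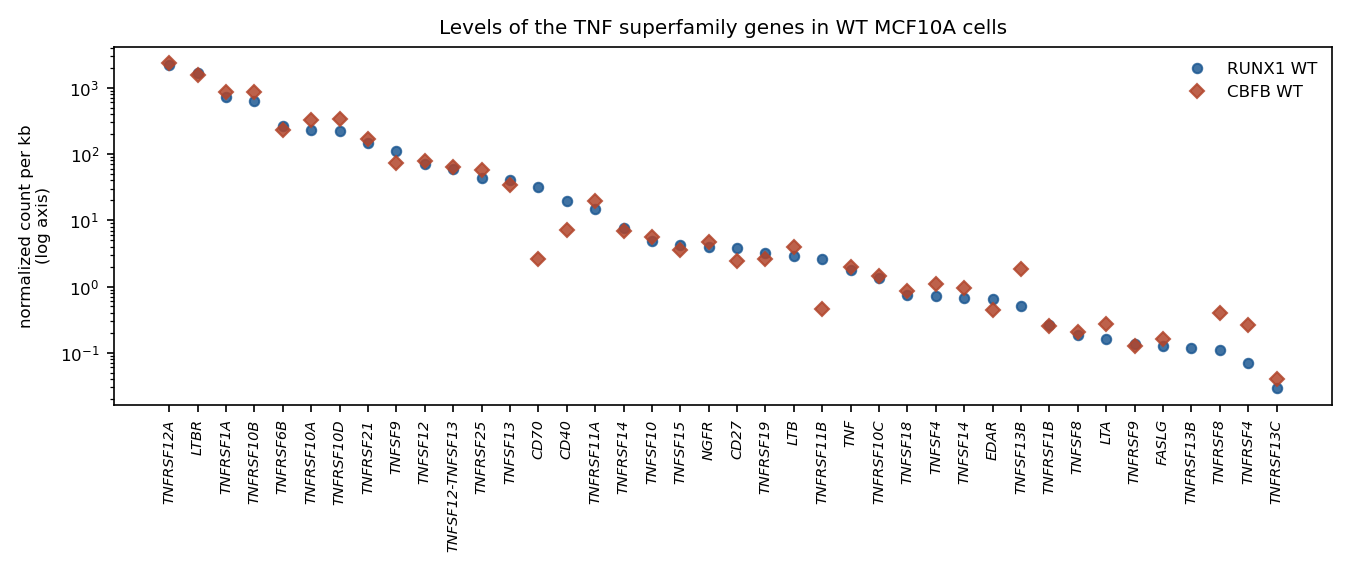
Level of each member in WT cells, as normalized counts per kb of transcript on a log axis, rebuilt from the deposited tables for RUNX1 WT (circles, from the RUNX1 KO1 table) and CBFB WT (diamonds), with no error because no spread per group was at hand. TNFRSF12A and LTBR lead in both, and CD70 lies at 32.1 in RUNX1 WT against 2.63 in CBFB WT.

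Both WT groups gave similar levels for most members, with exceptions that bear on the results below. CD70 stood at 29.3 normalized counts in RUNX1 WT and 2.4 in CBFB WT, and CD40 at 34.1 and 12.5. The tables were normalized separately and these pairs were not tested.

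In CBFB KO 10 members rose and 4 fell, of 25 with an adjusted p. Over all genes of that table with an adjusted p, 11.7% rose and 7.97% fell. In RUNX1 KO1 15 members rose and 4 fell of 33, against 19.7% and 19.9% of all genes. In RUNX1 KO2 11 rose and 2 fell of 32, against 8.76% and 6.08%, and the 11 became 7 once fold changes were freed of their dependence on transcript length and GC content. The 10 that rose in CBFB KO then became 7, and the 4 that fell became 5. Counts in RUNX1 KO1 stayed at 15 and 4. The median log2 fold change of the members with an adjusted p was 0.31 in CBFB KO, 0.34 in RUNX1 KO1 and 0.28 in RUNX1 KO2, where all genes had medians of -0.01, -0.00 and 0.02. The members without an adjusted p, 14 in CBFB KO, 7 in RUNX1 KO1 and 4 in RUNX1 KO2, had low means, and the filter that removed them uses the same counts. Of members that also passed a fold of 2, there were 5 in CBFB KO (2.98% of all genes), 8 in RUNX1 KO1 (4.93%) and 9 in RUNX1 KO2 (5.48%). Among genes whose mean reached 100, the median SE was 0.21 for RUNX1 KO2 and 0.10 for RUNX1 KO1, so the counts of the clones rest on unlike precision.

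CBFB KO shares no sample with either RUNX1 clone. Of the 10 members that rose in CBFB KO, 9 also rose in RUNX1 KO1 (90% of the first list and 60% of the 15 in the second), and 6 also rose in RUNX1 KO2 (60% and 54.5% of 11). The 6 became 2 once the dependence of fold changes on GC content and transcript length (the length and GC trend) was removed. The 9 shared with RUNX1 KO1 became 6 in the same way. Some members could not be shared, because LTB had no row for RUNX1 KO2. TNFSF18 and EDAR, which rose in both clones, and TNFRSF9, which rose in RUNX1 KO2, had no adjusted p in CBFB KO. The lowest mean with an adjusted p was 3.37 in CBFB KO, 0.748 in RUNX1 KO1 and 1.03 in RUNX1 KO2. Over all genes, 66.6% of those that rose in CBFB KO also rose in RUNX1 KO1, which is 36.1% of the KO1 list, and for RUNX1 KO2 the shares were 36.3% and 46.4%. Of the 4 members that fell in CBFB KO, CD40 and TNFRSF6B also fell in RUNX1 KO1 and CD40 alone fell in RUNX1 KO2. These are 50% and 25% of the members that fell in CBFB KO, near the 56.4% and 29.5% for all genes.

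**Figure D2:**
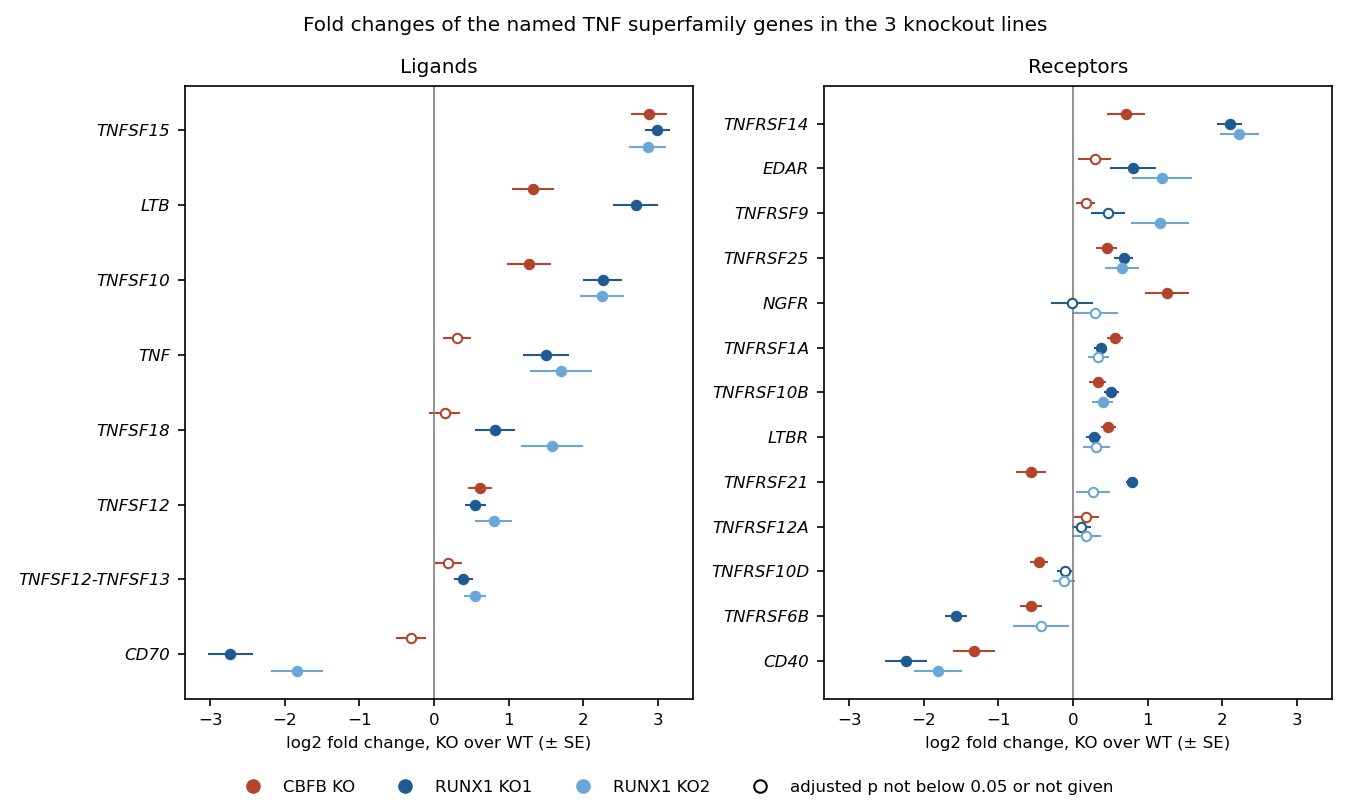
Log2 fold change of KO over WT (x axis, points, with bars of ± 1 SE) for the 8 ligand and 13 receptor genes chosen by the naming rule, by knockout line. Filled points passed an adjusted p of 0.05. TNFSF15 lies between 2.86 and 2.99 in every line, CD40 lies left of 0 in every line, and TNFRSF21 lies on opposite sides of 0 in CBFB KO and RUNX1 KO1.

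TNFSF15 showed the largest rise of any member in each table. It encodes TL1A, a cytokine that binds the death-domain receptor TNFRSF25 and the soluble decoy receptor TNFRSF6B. Its level went from 24.1 normalized counts in CBFB WT to 177 in CBFB KO, which is 2.88 on the log2 scale (SE 0.24, adjusted p = 7.7e-32 by DESeq2). In RUNX1 KO1 it went from 28.7 to 228 (log2 fold change 2.99, SE 0.17, adjusted p = 2.11e-66), and in RUNX1 KO2 from 27.9 to 203 (2.86, SE 0.25, adjusted p = 3.76e-28). The fold was thus 7.36, 7.94 and 7.27. No difference in its response was found between CBFB KO and RUNX1 KO1 (-0.11 on the log2 scale, with a 95% interval from -0.68 to 0.46) or RUNX1 KO2 (0.02, from -0.65 to 0.69).

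The receptors of TNFSF15 moved less. TNFRSF25, also called DR3, rose modestly in each line, from 198 to 270 normalized counts in the CBFB KO table (log2 fold change 0.45, SE 0.14, adjusted p = 0.0107), from 153 to 245 in the RUNX1 KO1 table (0.68, SE 0.13, adjusted p = 1.09e-06) and from 147 to 232 in the RUNX1 KO2 table (0.66, SE 0.23, adjusted p = 0.0302). Without the length and GC trend, the calls in CBFB KO (adjusted p = 0.0912) and RUNX1 KO2 (adjusted p = 0.165) did not hold. The decoy TNFRSF6B, or DcR3, moved the other way, from 266 to 181 normalized counts in CBFB KO (log2 fold change -0.56, SE 0.15, adjusted p = 0.0026) and from 302 to 101 in RUNX1 KO1 (-1.57, SE 0.15, adjusted p = 1.49e-23). In RUNX1 KO2 its value was -0.43 with a wide SE of 0.38 (adjusted p = 0.573). The TNFRSF6B rows are uncertain, because the annotation has a readthrough gene, RTEL1-TNFRSF6B, that shares its exons, and how shared reads were assigned is not given in the sources used here. The readthrough row had higher means, 869, 737 and 724, on a longer transcript, and its log2 fold changes were -0.46, -0.67 and -0.52. Per kb its means were lower, at 149, 126 and 124 against 196, 177 and 210 for TNFRSF6B. RTEL1 itself had similar log2 fold changes of -0.42, -0.54 and -0.46.

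TNFSF10, which encodes the death ligand TRAIL, also rose in each line. The level rose from 11 to 26.6 normalized counts in CBFB KO (log2 fold change 1.27, SE 0.29, adjusted p = 0.000204). It rose from 9.51 to 45.6 in RUNX1 KO1 (2.26, SE 0.26, adjusted p = 6.01e-17) and from 7.75 to 36.9 in RUNX1 KO2 (2.25, SE 0.30, adjusted p = 2.29e-12). The rise was smaller in CBFB KO by 0.99 on the log2 scale against KO1, and that difference missed the threshold (-0.99, 95% interval -1.76 to -0.23, adjusted p = 0.0825 by the normal test over all genes).

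The genes of the TRAIL receptors lie side by side on chromosome 8, and their values differed in sign. TNFRSF10B, or DR5, rose from 3631 to 4556 normalized counts in CBFB KO (log2 fold change 0.33, SE 0.11, adjusted p = 0.0223). It rose from 2572 to 3660 in RUNX1 KO1 (0.51, SE 0.10, adjusted p = 6.44e-06) and from 2422 to 3187 in RUNX1 KO2 (0.40, SE 0.14, adjusted p = 0.028). Without the length and GC trend the adjusted p was 0.0657 in CBFB KO and 0.0526 in RUNX1 KO2. TNFRSF10A, or DR4, named here after its values were seen, rose in RUNX1 KO1 (0.57, SE 0.08) and had 0.32 (SE 0.18) in CBFB KO and 0.29 (SE 0.16) in RUNX1 KO2. TNFRSF10D, a decoy with a truncated death domain, fell in CBFB KO from 1196 to 872 normalized counts (-0.46, SE 0.12, adjusted p = 0.00125), and had values of -0.11 (SE 0.10) and -0.12 (SE 0.15) in the RUNX1 clones. By the normal test its response in CBFB KO was not shown to differ from RUNX1 KO1 (-0.35, adjusted p = 0.14). Nor was it against RUNX1 KO2 (-0.34, adjusted p = 0.671). TNFRSF10C, the other decoy, had means of only 2.14 to 2.56 in the tables.

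**Figure D3:**
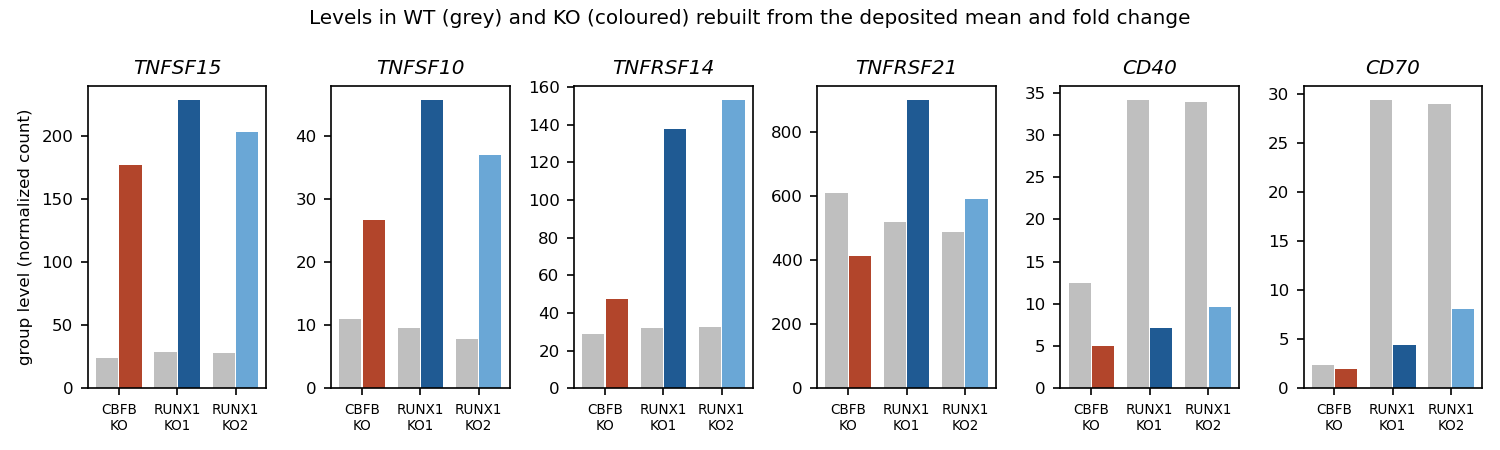
Levels of 6 members in WT (grey) and KO (coloured) samples, as normalized counts rebuilt from the deposited mean and fold change of each table, on axes that start at 0 and differ between genes, with no error because no spread per group was at hand. TNFSF15, TNFSF10 and TNFRSF14 stand higher in each KO, CD40 stands lower, and CD70 is low in CBFB WT (2.4) and CBFB KO (1.93).

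Among the genes of the TNF, lymphotoxin and LIGHT system, TNFRSF14 rose in each line. It encodes HVEM, the receptor of TNFSF14 (LIGHT) and a ligand of BTLA. Its level rose from 32.3 to 138 normalized counts in RUNX1 KO1 (log2 fold change 2.10, SE 0.17, adjusted p = 1.39e-32) and from 32.6 to 153 in RUNX1 KO2 (2.23, SE 0.26, adjusted p = 9.95e-16). In CBFB KO it rose from 29 to 47.5 only (0.71, SE 0.26, adjusted p = 0.0321), and the adjusted p was 0.12 without the length and GC trend. WT levels ranged from 29 to 32.6, and the response in CBFB KO was smaller than in RUNX1 KO1 (-1.38, SE 0.31, adjusted p = 0.000511) and than in RUNX1 KO2 (-1.52, SE 0.37, adjusted p = 0.00277). TNFSF14 itself was near the floor, with means of 2.46 to 4.07 and no call.

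LTB, the membrane-bound lymphotoxin chain that binds LTBR together with LTA, rose from 5.54 to 13.8 normalized counts in CBFB KO (log2 fold change 1.32, SE 0.28, adjusted p = 4.71e-05). It rose from 4.04 to 26.3 in RUNX1 KO1 (2.70, SE 0.30, adjusted p = 2.56e-17) and had no row in the RUNX1 KO2 table. Its rise in CBFB KO was smaller than in RUNX1 KO1 (-1.38, SE 0.41, adjusted p = 0.0161). LTA had means of 0.416 and 0.248 in the CBFB KO and RUNX1 KO1 tables, without an adjusted p. LTBR rose from 3666 to 5088 in CBFB KO (0.47, SE 0.10, adjusted p = 3.11e-05) and from 3870 to 4711 in RUNX1 KO1 (0.28, SE 0.10, adjusted p = 0.0106), and had 0.31 (SE 0.18) in RUNX1 KO2.

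TNF, the founding cytokine of the family, was near the floor of the tables in both WT groups. It went from 2.96 to 8.38 normalized counts in RUNX1 KO1 (log2 fold change 1.50, SE 0.31, adjusted p = 1.16e-05) and from 1.81 to 5.88 in RUNX1 KO2 (1.70, SE 0.41, adjusted p = 0.000544). CBFB KO had 4.06 against 3.28 in WT (0.31, SE 0.19, adjusted p = 0.273). The response in CBFB KO was below that in RUNX1 KO1 (-1.20, SE 0.37, adjusted p = 0.0186), and against RUNX1 KO2 the difference of -1.39 (SE 0.45) missed the threshold (adjusted p = 0.0663). At such means the fold changes were pulled towards 0 to an unequal degree in the tables (SE 0.19 in CBFB KO and 0.31 in RUNX1 KO1), and the part of this in the differences was not tested. Its receptor TNFRSF1A rose from 1894 to 2795 in CBFB KO (0.56, SE 0.11, adjusted p = 1.45e-05) and from 1620 to 2093 in RUNX1 KO1 (0.37, SE 0.09, adjusted p = 9.21e-05), with 0.34 (SE 0.14, adjusted p = 0.0886) in RUNX1 KO2. TNFRSF1B, the receptor typical of leukocytes, had means of 0.889 to 1.33.

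CD40, a costimulatory receptor that epithelial cells can also carry, fell in every line. The level fell from 12.5 to 4.97 normalized counts in CBFB KO (log2 fold change -1.33, SE 0.28, adjusted p = 4.96e-05), from 34.1 to 7.2 in RUNX1 KO1 (-2.24, SE 0.28, adjusted p = 4.05e-14) and from 33.9 to 9.68 in RUNX1 KO2 (-1.81, SE 0.32, adjusted p = 3.57e-07). CD70, the ligand of CD27, fell from 29.3 to 4.41 in RUNX1 KO1 (-2.73, SE 0.30, adjusted p = 2.15e-18) and from 28.9 to 8.1 in RUNX1 KO2 (-1.84, SE 0.35, adjusted p = 5.13e-06). In the CBFB experiment CD70 stood at 2.4 in WT and 1.93 in KO, with no adjusted p. Its log2 fold change there was -0.31 (95% interval -0.70 to 0.08, from values pulled towards 0 at this mean). CD27 had means of 3.05 to 4.87 and was not called. TNFSF9, named here after its values were seen as the remaining member that fell in RUNX1 KO1, had -0.59 there (SE 0.15, adjusted p = 0.000507), -0.56 in CBFB KO (SE 0.22, adjusted p = 0.0597) and -0.31 in RUNX1 KO2 (SE 0.22, adjusted p = 0.439).

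TNFSF12 encodes TWEAK, the ligand of the abundant receptor TNFRSF12A. It rose from 126 to 192 normalized counts in CBFB KO (log2 fold change 0.61, SE 0.16, adjusted p = 0.00236), from 114 to 168 in RUNX1 KO1 (0.55, SE 0.14, adjusted p = 0.000237) and from 112 to 194 in RUNX1 KO2 (0.80, SE 0.25, adjusted p = 0.0129). The call in RUNX1 KO2 did not hold without the length and GC trend (adjusted p = 0.128), nor did that of the readthrough row described next (adjusted p = 0.095). TNFRSF12A, or Fn14, had 0.18 (SE 0.17), 0.11 (SE 0.13) and 0.18 (SE 0.20) in the same order, none of them called, at means of 3712 to 4180. The readthrough gene, TNFSF12-TNFSF13, shares exons with TNFSF12 and TNFSF13, so these rows are uncertain too. The readthrough row rose in RUNX1 KO1 (0.39, SE 0.13, adjusted p = 0.0104) and RUNX1 KO2 (0.55, SE 0.15, adjusted p = 0.00227) and had 0.19 (SE 0.18) in CBFB KO, while TNFSF13, which encodes APRIL, was not called in any line.

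Several calls in the RUNX1 clones concerned genes with means below 4. TNFSF18, the ligand of GITR, had 1.49 in WT and 2.63 in RUNX1 KO1 (log2 fold change 0.82, SE 0.27, adjusted p = 0.00862) and 1.18 against 3.54 in RUNX1 KO2 (1.58, SE 0.41, adjusted p = 0.00133). EDAR, the ectodysplasin receptor of skin appendages, rose from 2.79 to 4.86 in RUNX1 KO1 (0.80, SE 0.31, adjusted p = 0.028) and from 2.43 to 5.55 in RUNX1 KO2 (1.19, SE 0.40, adjusted p = 0.0254). TNFRSF9, or 4-1BB, rose in RUNX1 KO2 from 1.08 to 2.42 (1.17, SE 0.39, adjusted p = 0.0207) and had 0.47 (SE 0.23, adjusted p = 0.0846) in RUNX1 KO1. In the CBFB KO table TNFSF18, EDAR and TNFRSF9 had means of 1.81, 2.12 and 0.815 and no adjusted p.

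Of the 25 members tested in both tables, 6 differed between CBFB KO and RUNX1 KO1, where 9.84% of all genes did. Of 24 tested, 1 differed between CBFB KO and RUNX1 KO2, where 2.90% of all genes did. TNFRSF21 and NGFR had the most unlike responses among the receptors not yet described. TNFRSF21, the death receptor DR6, fell from 609 to 413 normalized counts in CBFB KO (log2 fold change -0.56, SE 0.20, adjusted p = 0.0282). In RUNX1 KO1 it rose from 517 to 897 (0.79, SE 0.08, adjusted p = 1.72e-19). The difference was -1.35 (SE 0.22, adjusted p = 5.68e-08). RUNX1 KO2 had 0.27 (SE 0.23, adjusted p = 0.548), and its difference from CBFB KO, -0.83 (SE 0.30), missed the threshold (adjusted p = 0.148).

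NGFR, the low-affinity neurotrophin receptor and a basal-cell surface marker, rose from 16 to 38.2 normalized counts in CBFB KO (log2 fold change 1.26, SE 0.29, adjusted p = 0.000264). In RUNX1 KO1 it stood at 13.2 against 13.3 in WT (-0.01, SE 0.28), and in RUNX1 KO2 at 15.7 against 12.8 (0.29, SE 0.31). The response differed between CBFB KO and RUNX1 KO1 (1.27, SE 0.41, adjusted p = 0.0261), a call that did not hold without the length and GC trend (1.20, adjusted p = 0.0558), although the value was nearly as large. Against RUNX1 KO2 the difference of 0.96 (SE 0.42) missed the threshold (adjusted p = 0.348). TNFRSF6B fell less in CBFB KO than in RUNX1 KO1, by 1.02 on the log2 scale (SE 0.22, adjusted p = 0.000181), with the reservation given above on its readthrough gene. Without the length and GC trend that difference was 0.70 (adjusted p = 0.0259 by the normal test). Between CBFB KO and RUNX1 KO2 its difference was -0.13 (SE 0.41, adjusted p = 0.999 by the normal test).

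**Figure D4:**
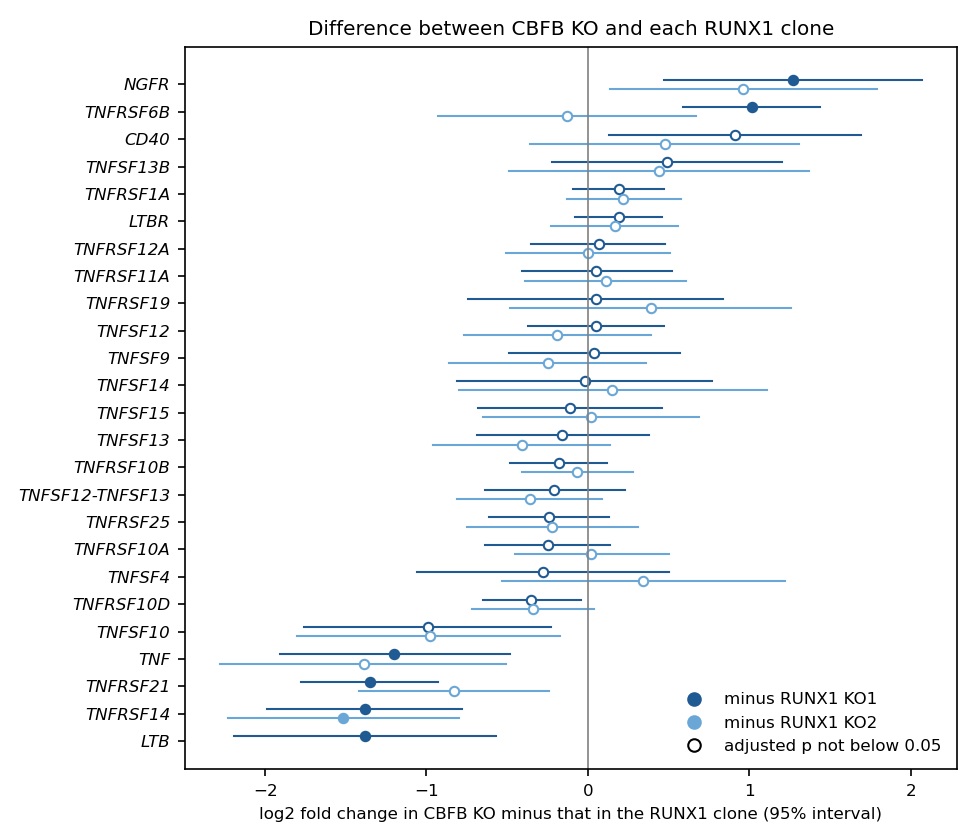
Log2 fold change in CBFB KO minus that in RUNX1 KO1 (dark blue) or RUNX1 KO2 (light blue) for each member tested in both tables, on the x axis, with 95% intervals as lines. Filled points passed an adjusted p of 0.05. TNFRSF14 is filled against both clones, and TNFSF15 lies at -0.11 and 0.02.

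The remaining members were not called in any table. They included TNFRSF11A, the receptor RANK, with means of 111 to 163 and log2 fold changes from -0.01 to 0.10, and TNFRSF19, with means of 12 to 15.2 and values from -0.00 to 0.39. TNFSF4 and TNFSF13B had means of at most 5.25. FASLG, TNFRSF8, TNFSF8, TNFRSF4, TNFRSF13B and TNFRSF13C never exceeded a mean of 1.36 and had no adjusted p in any table that listed them, and TNFRSF11B, the RANK ligand decoy osteoprotegerin, had means of 1.1 to 6.65.

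Some members that are neighbours on a chromosome moved alike and others did not. In the order of protein-coding genes in RefSeq, TNFSF15 is the direct neighbour of TNFSF8 on chromosome 9, and TNFSF8 had means of 0.399 and 0.37 with log2 fold changes of 0.06 and 0.12. On chromosome 6, LTA lies next to TNF and TNF next to LTB, and of these TNF and LTB rose in RUNX1 KO1 while LTA had a mean of 0.248. On chromosome 19, CD70 lies between TNFSF9 and TNFSF14, and in RUNX1 KO1 the log2 fold changes were -2.73 for CD70, -0.59 for TNFSF9 and -0.06 for TNFSF14. TNFSF18 and TNFSF4 are neighbours on chromosome 1, with 1.58 and -0.24 in RUNX1 KO2. On chromosome 12, LTBR and TNFRSF1A lie 1 protein-coding gene apart and both rose in CBFB KO (0.47 and 0.56) and RUNX1 KO1 (0.28 and 0.37). CD27, the direct neighbour of LTBR, had -0.16 in CBFB KO, without an adjusted p, and -0.13 in RUNX1 KO1, not called. TNFSF12 and the readthrough gene TNFSF12-TNFSF13 on chromosome 17, which share exons, both rose in RUNX1 KO1 (0.55 and 0.39) and RUNX1 KO2 (0.80 and 0.55).

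Promoter windows of some members that moved are printed next, as the 250 bases before the RefSeq transcription start in build GRCh38.p14. TNFSF15, TNFSF10 and TNFRSF14 were among those that rose in all the lines, and TNFRSF21 moved in opposite directions in CBFB KO and RUNX1 KO1. TNFRSF25 rose in each line too, and its window, not printed, holds none of the motifs given below. The files of the study use hg19 and hold no coordinates. Letters were searched on both strands for the RUNX motif (TGTGGT or TGCGGT), the AP-1 motif (TGANTCA) and the TATA box (TATAAA), and matches are in capitals. The TNFSF15 window, chr9:114792531-114792780 on the minus strand, holds 1 AP-1 match. The TNFSF10 window, chr3:172523431-172523680 on the minus strand, holds a TATA match 31 bases before the start. The TNFRSF14 window, chr1:2556121-2556370 on the plus strand, holds none of the motifs. The TNFRSF21 window, chr6:47309906-47310155 on the minus strand, holds 1 RUNX match.
TNFSF15: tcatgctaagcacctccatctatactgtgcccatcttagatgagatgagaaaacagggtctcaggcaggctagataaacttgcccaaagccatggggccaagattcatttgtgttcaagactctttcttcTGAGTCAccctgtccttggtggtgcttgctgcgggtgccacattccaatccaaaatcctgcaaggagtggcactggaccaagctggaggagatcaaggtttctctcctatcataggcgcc
TNFSF10: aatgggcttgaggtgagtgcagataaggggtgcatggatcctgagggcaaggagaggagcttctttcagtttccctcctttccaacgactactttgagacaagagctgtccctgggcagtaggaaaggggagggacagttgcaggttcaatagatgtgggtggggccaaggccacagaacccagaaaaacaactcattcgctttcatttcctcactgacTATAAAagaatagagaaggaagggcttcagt
TNFRSF14: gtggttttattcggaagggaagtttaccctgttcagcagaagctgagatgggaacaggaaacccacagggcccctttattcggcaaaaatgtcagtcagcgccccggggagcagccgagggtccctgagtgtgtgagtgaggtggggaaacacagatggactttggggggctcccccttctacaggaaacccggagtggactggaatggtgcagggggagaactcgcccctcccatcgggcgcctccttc
TNFRSF21: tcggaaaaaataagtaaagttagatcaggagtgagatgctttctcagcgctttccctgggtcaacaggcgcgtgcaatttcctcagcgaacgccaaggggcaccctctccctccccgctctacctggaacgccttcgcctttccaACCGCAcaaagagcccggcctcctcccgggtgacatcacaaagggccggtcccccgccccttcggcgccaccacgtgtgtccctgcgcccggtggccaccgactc

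RefSeq gave windows for 25 of the 40 members, 31 windows in all. Of these windows, 7 (22.6%) held a RUNX match, 5 (16.1%) an AP-1 match and 4 (12.9%) a TATA match. Of all 35116 RefSeq promoter windows of this length, 16.3% held the RUNX letters, 6.57% AP-1 and 10.7% the TATA box. Counted by member, 7 of the 25 had a RUNX match, 4 an AP-1 match and 4 a TATA match. The windows of TNFSF14 overlap and hold the same AP-1 match. A match is only a match of letters in this window, and binding was not measured here. No window was listed for CD40, CD70, NGFR, EDAR, TNFSF12, TNFSF12-TNFSF13 or members of the TNFRSF10 group, among others.

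Downstream of the receptors, a list of 51 adaptors and effectors was counted in the same way, with no test of the list. In CBFB KO, 13 rose and 3 fell of 49 tested, beside 11.7% and 7.97% of all genes. In RUNX1 KO1, 22 rose and 9 fell of 50, beside 19.7% and 19.9%, so the share that fell was near that of all genes. In RUNX1 KO2, 10 rose and 1 fell of 50, beside 8.76% and 6.08%. The median log2 fold change of the list was 0.14, 0.21 and 0.06, where all genes had -0.01, -0.00 and 0.02. EDARADD, the adaptor of EDAR, had 1.45 (SE 0.16) in CBFB KO, 1.45 (SE 0.14) in RUNX1 KO1 and 1.39 (SE 0.16) in RUNX1 KO2, all called, from means of 112 to 168. CFLAR, which encodes c-FLIP, an inhibitor of caspase-8 activation by death receptors, rose by 0.70 (SE 0.15), 1.08 (SE 0.09) and 1.10 (SE 0.09). SORT1, a sorting receptor that pairs with NGFR, rose by 0.79, 0.90 and 0.77, and TRAF3IP3, a TRAF3-binding protein, by 0.71, 1.69 and 1.72.

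Other members of the downstream list rose in the RUNX1 clones. TNFAIP3, the ubiquitin-editing NF-kappaB inhibitor A20, rose by 2.10 (SE 0.12, adjusted p = 2.59e-63) in RUNX1 KO1 and by 1.39 (SE 0.28, adjusted p = 2.38e-05) in RUNX1 KO2 and had no row in the CBFB KO table. TNIP3, an A20-binding protein with means of 7.37 to 27, had 0.98 (SE 0.31) and 1.32 (SE 0.39), both called, and 0.38 (SE 0.28) in CBFB KO. CASP10, an initiator caspase, rose by 0.51 (SE 0.19) and 1.18 (SE 0.20) and had 0.23 (SE 0.23) in CBFB KO. The family genes outside the symbol rule, FAS, CD40LG, EDA, EDA2R and RELT, were tested in each table and 0 of the 5 passed the deposited DESeq2 test in any of them, with log2 fold changes between -0.60 and 0.26. Without adjustment, 1 of the 5 in CBFB KO, 2 in RUNX1 KO1 and 1 in RUNX1 KO2 had a p below 0.05.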

How the data were processed

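RNA of 18 MCF10A samples in 5 groups was sequenced. The labels name a TruSeq mRNA kit and the methods of the study name removal of ribosomal RNA. The submitters' processing notes name Trimmomatic, STAR, DESeq2 and hg19, and their versions and the annotation are not given in the sources used here. The 3 deposited tables compare each knockout with its WT group and hold, per gene, comparison columns made by the authors with DESeq2. These are a mean normalized count over all samples of the table (a signal made by the authors), a deposited log2 fold change, its SE and the Wald statistic (both deposited as a score), and deposited p-values with their Benjamini-Hochberg adjusted form. There were 0 columns of values per sample, so depth per sample is unknown. The sum of the mean normalized counts was 16467400 to 20214423 per table.

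These columns were used as deposited, since no test could be refitted from them. The statistic equalled fold change over SE, and the adjusted p was checked by recomputing it. WT and KO levels were rebuilt from mean and fold change, assuming equal group sizes. Levels per kb used the longest GENCODE 29 transcript of each Entrez ID, found for all 40 members. CBFB KO was compared with the RUNX1 clones, with which it shares no sample, by dividing the difference of log2 fold changes by its combined SE (normal distribution, two-sided), adjusted over all genes tested in both tables. The test of the difference was also run on simulated data. The clones share their WT samples and were not compared with each other. Python 3.11.15, NumPy 2.4.6, SciPy 1.17.1, pandas 2.3.3 and Matplotlib 3.10.9 were used.

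Members, gene lists and rules were chosen with earlier results of these data known. Members named were those called in at least 2 tables, those called with a fold of at least 2 in any, those that differed between CBFB KO and a clone, and the 5 with the highest mean in the CBFB KO table. Downstream genes were named if called in all 3 tables, or called with a fold of at least 2 in any. Alternatives were a fold of 2, a mean of at least 100, no filter on low values, recentring on the median, and removal of the trend on transcript length and GC content. The trend used 98.9% to 99.2% of the genes with a mean of at least 100. It was fitted on those genes only and subtracted from all genes, also those with lower means, with the SE unchanged. Promoter windows came from RefSeq, and the last 30 bases of 28 of the 31 windows of members, after the start, were found in GENCODE transcripts of the same gene, as a check of strand.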

Additional observations from a re-analysis of the deposited data

Results flagged for a closer look

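The response of 6 members differed between CBFB KO and RUNX1 KO1, and of 1 of them also between CBFB KO and RUNX1 KO2, by the test of the difference itself. The values are log2 fold changes in CBFB KO minus those in the clone. Against RUNX1 KO1 they were -1.38 for LTB, 1.27 for NGFR, -1.20 for TNF, -1.38 for TNFRSF14, 1.02 for TNFRSF6B and -1.35 for TNFRSF21. The NGFR call did not hold without the length and GC trend (1.20, adjusted p = 0.0558 by the normal test). Against RUNX1 KO2 the value was -1.52 for TNFRSF14. Of these, TNFRSF21 alone was called in opposite directions. It was 1 of the 4 members that fell in CBFB KO. Over all genes, 37 of the 1194 that fell in CBFB KO rose in RUNX1 KO1 (3.1%). CBFB and RUNX1 samples came from separate WT groups and tables, so the knocked-out gene, the clone and the experiment cannot be told apart. LTB and TNF had means below 16 in both of these tables, and NGFR had 27.1 in CBFB KO and 13.3 in RUNX1 KO1. Fold changes of such weakly expressed genes were pulled towards 0. For TNF the SE was unequal, 0.19 in CBFB KO and 0.31 in RUNX1 KO1, while LTB had 0.28 and 0.30. The part of this in the differences was not tested.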

How the results depend on the processing

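Of 62 fold changes of the named members, recentring and removal of the length and GC trend each reversed 1. Removing the trend on length and GC content turned TNFRSF12A in RUNX1 KO2 to -0.08 and recentring turned NGFR in RUNX1 KO1 to 0.01, neither of them called. Requiring a fold of at least 2 left 4 members higher and 1 lower in CBFB KO, 5 higher in RUNX1 KO1 and 7 higher in RUNX1 KO2. Adjusting over genes with a mean of at least 100 left 6 higher in CBFB KO, 9 higher and 2 lower in RUNX1 KO1, and 5 higher and 0 lower in RUNX1 KO2, with 2 differing between CBFB KO and RUNX1 KO1 and 0 between CBFB KO and RUNX1 KO2, since fewer members were tested. Without the length and GC trend 7 members were higher in CBFB KO and 7 in RUNX1 KO2. In all, 7 calls on fold changes of named members were lost. They were TNFRSF25 (0.32 in CBFB KO and 0.49 in RUNX1 KO2), TNFRSF10B (0.28 and 0.36), TNFRSF14 in CBFB KO (0.56), and TNFSF12 (0.56) and TNFSF12-TNFSF13 (0.35) in RUNX1 KO2. The difference of NGFR between CBFB KO and RUNX1 KO1 was no longer called either (1.20, adjusted p = 0.0558 by the normal test). That left 5 members differing between CBFB KO and RUNX1 KO1 instead of 6. The cause was not tested. Members higher in CBFB KO and also in RUNX1 KO1 then numbered 6 instead of 9. For RUNX1 KO2 the number was 2 instead of 6. Both overlaps were added after seeing the data. A count over all 3 tables was not made, because both clones share WT samples. Omitting the low-value filter changed no count of members higher or lower, or of their overlaps. Counts of members that differed between CBFB KO and a clone were not remade without it. No paired analysis was possible because the tables hold no values per sample, and leaving out a replicate was not run for the same reason.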
